A study of Homo sapiens with 4 samples.

Results

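The genes described here are 46 genes of DNA repair and of the DNA damage checkpoint. They were chosen by name for their known roles, with earlier results of these data known. The cells were Kelly, an established line of human neuroblastoma. Every culture had become resistant to TAE684, which inhibits the receptor kinase ALK, and was kept in 1 µM of that drug. The groups were cells carrying a short hairpin RNA against BORIS (shBORIS, 2 arrays) and cells carrying one against luciferase (shLUC, 2 arrays), the control. Both received virus for 24 h and puromycin for 48 h before RNA was extracted. BORIS is the protein of CTCFL, a germ-line relative of the genome-folding factor CTCF, and the comparison asks which transcripts differ when it is reduced in drug-resistant cells. The labels name 1 hairpin against BORIS and 1 resistant line, and call the arrays of a group biological duplicates.

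Of the 46 genes, 42 had a probe set that named them alone on the Affymetrix PrimeView array, out of 18244 genes in all, and BRCA2, FANCA, FANCD2 and RBBP8 were not analysed here. Each gene was read from its brightest probe set. FANCB and PMS2 lay under the filter on dim genes, a mean intensity of 62.2, so 40 members were among the 10946 genes tested. By role, 16 of the tested members act in homologous recombination, 9 in the Fanconi anaemia pathway, 7 in checkpoint signalling, 2 in break sensing, 1 in mismatch repair and 4 in end joining, and PARP1 stands alone.

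Cells repair broken DNA in several ways. Homologous recombination copies the lost sequence from the sister chromatid and works in S and G2 phase, when a sister exists, while end joining rejoins the ends directly at any time in the cycle. The Fanconi anaemia pathway unhooks crosslinked strands at stalled replication forks and hands the break to recombination, and mismatch repair corrects errors left by the replicating polymerase. Checkpoint kinases sense the damage and hold the cycle. Many transcripts of these pathways are made mainly in S phase. Neuroblastoma cells with amplified MYCN, such as Kelly, are known for heavy replication stress.

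The hairpin's target was lower in the cells meant to lack it. CTCFL had intensities of 700.6 and 736.9 on the shBORIS arrays, against 3563.3 and 3375.8 on the shLUC arrays. Most other transcripts were brighter with shBORIS, with a log2 difference of 0.48 for the median gene. Intensities as deposited thus carry a shift shared by most genes. Each difference was therefore computed on 2 scales, that of the deposited values and one relative to the median gene, after each array's median was subtracted. Many differences of single genes are given below on the relative scale alone, which is meant where no scale is named. All differences are shBORIS minus shLUC of log2(intensity + 16), which understates the change of dim genes as deposited. On the relative scale it can thus lower dim genes that were brighter with shBORIS, so falls of dim genes are not understated there. The words "rose" and "fell" are used of genes past an adjusted p of 0.05 in limma on the scale named. The neuroblastoma genes MYCN (5727.2 and 6041.1 with shBORIS, 5346.6 and 5279.5 with shLUC), HAND2, GATA3, DBH and TH were all bright enough to be tested. On the relative scale MYCN (-0.33), HAND2 (-0.31), TH (-0.26) and GATA3 (-0.15) fell and DBH rose (0.39). As deposited GATA3 (0.32) and DBH (0.87) were higher, and MYCN (0.15), HAND2 (0.16) and TH (0.21) did not pass. Under the filter lay 4 of 6 measured markers of Schwann and glial cells and 7 of 10 markers of fibroblasts, endothelium and immune cells. The lists did not move as one: with shBORIS ERBB3 read 23.4 and 22.7 against 74.3 and 66.2 with shLUC, and NGFR fell on both scales (-0.30 as deposited, -0.77 relative), while GFAP was higher as deposited (0.33). The summed intensity as deposited of the Schwann and glial list was 505.9 and 571.0 with shBORIS and 633.3 and 573.3 with shLUC. That of the other list was 676.8 and 682.1 with shBORIS and 581.0 and 545.3 with shLUC. The 3 tested genes of that other list were below 0 on the relative scale, from PDGFRB (-0.05) to CD68 (-0.55). Of these 2 fell, beside 28.8% of all genes tested, and as deposited 1 was higher and 0 were lower. No marker was at 0. The 3′ to 5′ ratio of the ACTB control probe sets, a sign of RNA integrity, was 1.361 and 1.321 with shBORIS and 1.464 and 1.381 with shLUC. The part of these differences in the results below was not tested.

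Most repair genes were brighter in shBORIS cells, and more than at the median gene. As deposited, 38 of the 40 tested members were higher and 0 were lower (95.0%), where 81.9% of all genes tested were called, 77.2% as higher and 4.64% as lower. MDC1 and LIG4 were the members that did not pass. In bulk RNA, more cells that express a gene and more of its RNA per cell cannot be told apart. Both shBORIS arrays lay above both shLUC arrays in those 38 members and below them in 0, which held for 83.8% and 6.65% of all genes tested. After quantile normalization 25 members were higher and 3 lower. No share over all genes is given for that scaling, so this count describes the members alone. Measured from the median gene, 23 members rose (57.5%), 3 fell (7.50%) and 14 did not pass, where 59.1% of all genes tested were called, 30.3% as higher and 28.8% as lower. On that scale the groups did not overlap for 25 members that were higher and 5 that were lower with shBORIS, as for 40.4% and 39.0% of all genes tested. The median of the members was 0.24 on the relative scale and 0.72 on the deposited one. Of the members, 13 were at least 0.5 higher relative to the median gene, or 32.5%, and 7.48% of all genes tested were.

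As deposited, 16 of 16 recombination genes, 9 of 9 Fanconi genes, 6 of 7 checkpoint genes and 3 of 4 end joining genes were higher and 0 were lower, beside 77.2% of all genes tested that were higher. On the relative scale the roles had unlike counts, beside 30.3% of all genes tested that rose and 28.8% that fell. Among the 16 recombination genes 12 rose (75.0%) and 0 fell (median 0.30). Among the 9 Fanconi genes 3 rose (33.3%), a share near that of all genes, and 1 fell (median 0.01). Checkpoint signalling had 3 rises (42.9%) and 1 fall in 7 genes (median 0.10). End joining had 2 rises and 1 fall in 4 genes (median 0.05). Both tested genes of break sensing and the 1 tested mismatch repair gene rose on their brightest probe sets, and PARP1 did not pass. No test was made between roles, so these counts describe the genes on the array.

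**Figure D1:**
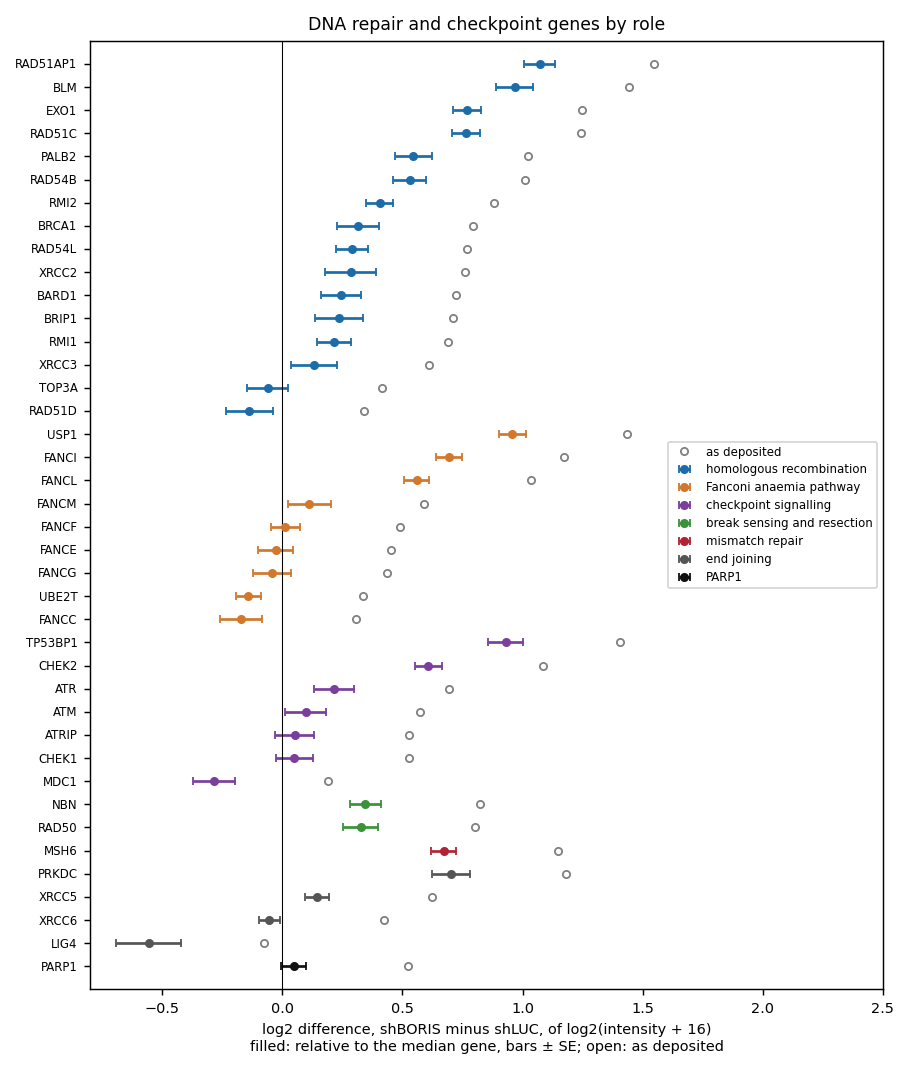
Log2 difference (shBORIS minus shLUC) of each of the 40 tested members, grouped by role. Filled points are relative to the median gene with their standard errors and open points are as deposited; RAD51AP1, BLM, USP1 and TP53BP1 lie farthest right, and LIG4 is the member left of 0 on both scales.

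Among recombination genes, RAD51AP1 and BLM differed most. RAD51AP1, which promotes strand invasion of the intact duplex, had intensities of 683.3 and 693.2 with shBORIS, against 242.4 and 208.4 with shLUC. Against the median gene it rose 2.1-fold, a log2 difference of 1.07 (SE 0.06; adjusted p = 1.1e-06), and it was 2.92-fold higher as deposited. Only 0.256% of the genes tested had a larger relative difference. All 4 of its probe sets showed it, between 1.01 and 1.13. BLM, the Bloom syndrome helicase that dissolves double Holliday junctions, stood at 424.0 and 391.0 with shBORIS and at 146.1 and 133.1 with shLUC, a relative log2 rise of 0.97 (SE 0.08; adjusted p = 5.13e-06). For both genes the arrays of the groups lay far apart.

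EXO1 and RAD51C came next. EXO1, a nuclease that lengthens the single-stranded end at a break, read 628.0 and 697.1 with shBORIS and 274.5 and 265.2 with shLUC, and its relative rise was 0.77 (SE 0.06). RAD51C, which belongs to the same family as RAD51D, XRCC2 and XRCC3, read 1162.5 and 1317.1 with shBORIS and 550.0 and 480.0 with shLUC, and rose by 0.76 (SE 0.06). The other three had smaller values. XRCC2 read 125.0 and 141.1 with shBORIS and 86.0 and 59.5 with shLUC, and rose by 0.28 (adjusted p = 0.0409). That call was lost with a pseudocount of 64, and without shBORIS replicate 2 or shLUC replicate 2, where the value was 0.25 and 0.12. XRCC3 stood at 84.2 and 101.4 with shBORIS and at 53.6 and 56.6 with shLUC, and did not pass on the relative scale (0.13, adjusted p = 0.26). It did pass as higher after quantile normalization (0.31), with no filter and when probe sets were averaged. RAD51D read 98.6 and 114.2 with shBORIS and 75.7 and 85.7 with shLUC, higher as deposited by 0.34 (adjusted p = 0.00315) but at a relative -0.14 (adjusted p = 0.252), where its groups overlapped. All 4 RAD51D probe sets above the filter were below 0 on that scale, from -0.29 to -0.14. When its probe sets were averaged RAD51D passed as lower, and its call also changed without shLUC replicate 1. So these family members were spread over a wide range, with RAD51C at the top and RAD51D at the bottom, and no difference between them was tested.

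BRCA1, PALB2 and BARD1, which act together early in recombination, rose by less. PALB2, a partner of BRCA1 at the break, had intensities of 277.6 and 329.9 with shBORIS and 154.5 and 128.4 with shLUC, a relative rise of 0.55 (SE 0.08; adjusted p = 1.92e-04). BRCA1 read 293.5 and 381.9 with shBORIS and 194.8 and 178.7 with shLUC, a relative rise of 0.31 (SE 0.09; adjusted p = 0.00995). Its shBORIS duplicates lay further apart than its shLUC duplicates, and without shBORIS replicate 2 the rise was 0.18 and did not pass (adjusted p = 0.1). The other 3 BRCA1 probe sets above the filter read higher, at 0.50 to 0.56. BARD1, the partner that BRCA1 needs as a ubiquitin ligase, rose by 0.25 (adjusted p = 0.0262). That call was lost with a pseudocount of 64, and without shBORIS replicate 2 (0.14) or shLUC replicate 2 (0.22). The helicase BRIP1, which binds BRCA1 and is also a Fanconi protein, was dim at 87.2 and 78.6 with shBORIS and 47.7 and 41.2 with shLUC. It was higher as deposited by 0.71 but did not pass on the relative scale (0.23, adjusted p = 0.0663). It did pass under 6 of 12 alternatives, with values up to 0.46 after quantile normalization, so its call depends on the processing.

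The translocases and the dissolution complex were uneven. RAD54B, which remodels chromatin during recombination, stood at 215.8 and 239.9 with shBORIS and at 107.5 and 102.7 with shLUC, a relative rise of 0.53 (SE 0.07). Its relative RAD54L rose by 0.29 (adjusted p = 0.00414). BLM works with TOP3A, RMI1 and RMI2. RMI2 rose by 0.40 (adjusted p = 2.08e-04) and RMI1 by 0.21 (adjusted p = 0.0254), both subunits that stabilise the complex. The RMI1 call was lost without shBORIS replicate 1, shLUC replicate 1 or shLUC replicate 2, at 0.17 to 0.22. It was also lost with a pseudocount of 64. The topoisomerase TOP3A, the catalytic strand-passing subunit of the complex, read 110.1 and 124.6 with shBORIS and 94.0 and 74.5 with shLUC, and stood at a relative -0.06 (adjusted p = 0.566). Its other probe set, slightly dimmer at 113.5 and 119.3 with shBORIS and 59.0 and 55.3 with shLUC, read 0.38 (adjusted p = 0.00247 in the fit over all probe sets), so the direction of TOP3A is uncertain.

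**Figure D2:**
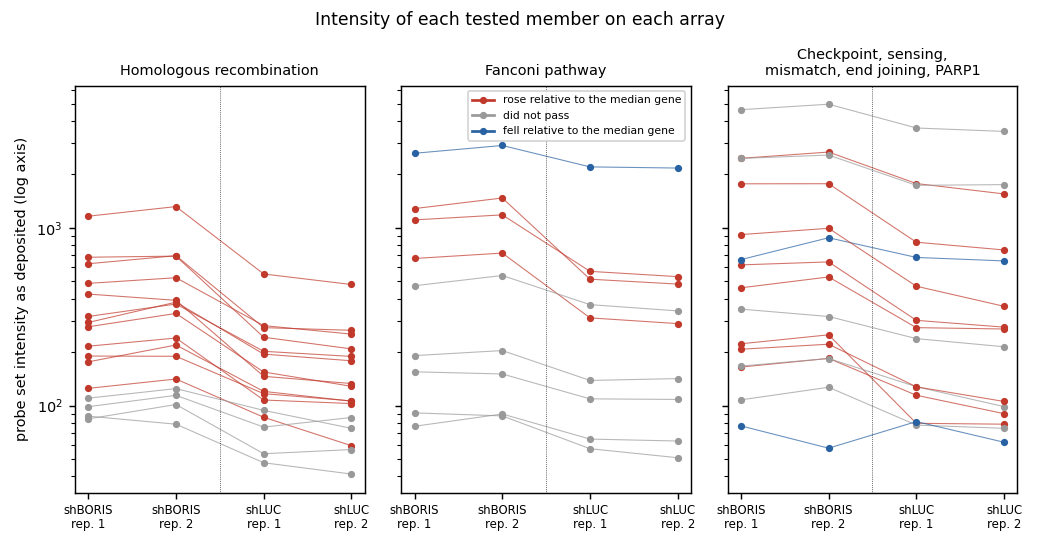
Intensity as deposited (log axis) of each tested member on each of the 4 arrays, with lines joining the values of 1 gene. Colours mark the call relative to the median gene; most lines step down from the shBORIS to the shLUC arrays, while that of LIG4 does not.

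Promoters of the members were searched for short motifs of cell cycle genes. RefSeq promoter windows (GRCh38.p14, from 250 bases before a start site to 50 after it) were found for 36 of the 42 measured members, 56 windows in all since some genes have several starts. The stretch of 120 bases before the start site is shown for RAD51AP1, BLM and TP53BP1, the members with the largest relative differences that had a single window; they were picked after their values were seen. Capitals mark CCAAT, the box bound by NF-Y, on either strand (ATTGG on the opposite one).
RAD51AP1: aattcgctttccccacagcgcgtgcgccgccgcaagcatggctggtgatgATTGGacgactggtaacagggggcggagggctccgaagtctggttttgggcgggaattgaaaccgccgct
BLM: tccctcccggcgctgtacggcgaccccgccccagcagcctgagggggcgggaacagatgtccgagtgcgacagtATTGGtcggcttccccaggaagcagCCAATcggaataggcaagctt
TP53BP1: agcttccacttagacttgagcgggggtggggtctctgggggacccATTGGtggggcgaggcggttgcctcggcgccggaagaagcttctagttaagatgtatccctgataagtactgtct
They lie at chr12:4538770-4538889 (plus strand), chr15:90717226-90717345 (plus strand) and chr15:43510641-43510760 (minus strand). Each of these stretches holds a CCAAT box, and that of BLM holds 2. USP1, which ranks between BLM and TP53BP1 by relative difference, has 2 windows and was not printed, and its 120-base stretches hold 0. CCAAT on either strand was in 29 of the 56 member windows (51.8%), and in 34.6% of all 35116 windows. By window, CCAAT was in 42.3% of the 26 windows of members that rose relative to the median gene, and in 59.3% of the 27 windows of tested members that did not rise. The share was thus no higher in the members that rose.

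Letters bound by E2F factors, which drive S-phase genes, were then searched as TTTGGCGC and TTTCCCGC on both strands and counted together. They were in 4 of the 56 member windows (7.14%) and in 2.27% of all windows. The 4 matches are shown in 30 bases each, with the match in capitals, and the genes run from the highest to the lowest relative difference.
MSH6: ctccccccagaTTTCCCGCcagcaggagcc
XRCC2: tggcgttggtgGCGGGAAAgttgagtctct
XRCC6: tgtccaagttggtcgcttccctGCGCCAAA
FANCC: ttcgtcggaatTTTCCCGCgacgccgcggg
These lie at chr2:47783137-47783166 (plus strand), chr7:152676102-152676131 (minus strand), chr22:41621315-41621344 (plus strand) and chr9:95317737-95317766 (minus strand). Those of XRCC2 and XRCC6 match on the opposite strand. Relative to the median gene MSH6 and XRCC2 rose, while XRCC6 and FANCC did not pass. The share was 7.69% of windows in members that rose and 7.41% in tested members that did not. TTTGAA, a cell cycle element of G2 genes, was in 10.7% of member windows and 15.2% of all windows. The CTCF core motif was in 0 of the 56 member windows and in 0.47% of all windows. None of the letters searched contains another. A match is a run of letters and not evidence that a factor binds there.

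In the Fanconi pathway USP1, FANCI and FANCL rose and the other tested core complex members did not. USP1, the protease that removes ubiquitin from FANCI and its partner and so resets the pathway, had intensities of 1283.7 and 1471.8 with shBORIS, against 514.1 and 482.6 with shLUC. Its relative rise was 0.96 (SE 0.06; adjusted p = 1.12e-06) and was 2.7-fold higher as deposited. FANCI, which is clamped on DNA once the pathway is active, read 672.5 and 721.0 with shBORIS and 311.5 and 289.2 with shLUC, a relative rise of 0.69 (SE 0.06; adjusted p = 5.47e-06). Its 3 probe sets ranged from 0.15 to 0.98. FANCL, the ubiquitin ligase of the core complex, read 1108.4 and 1183.0 with shBORIS and 569.1 and 531.5 with shLUC, and rose by 0.56 (SE 0.05; adjusted p = 1.28e-05). The groups of these 3 genes did not overlap on either scale. Both shBORIS arrays also lay above both shLUC arrays for 83.8% of all genes tested as deposited and 40.4% on the relative scale.

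The remaining subunits of the core complex, which hold the ligase at the crosslink, did not pass on the relative scale in the fit described here. FANCF had 472.4 and 539.3 with shBORIS and 369.8 and 340.9 with shLUC, at 0.01 relative to the median gene (adjusted p = 0.882). Its dimmer probe sets read -0.24 and -0.17 (adjusted p = 0.0111 and 0.0712 in the fit over all probe sets). FANCE had 191.1 and 204.0 with shBORIS and 138.5 and 141.9 with shLUC, at -0.03 (adjusted p = 0.773). FANCG had 154.9 and 150.6 with shBORIS and 109.1 and 108.3 with shLUC, at -0.04 (adjusted p = 0.676). All 3 genes were higher as deposited, by 0.44 to 0.49 on their brightest probe sets, which is close to the shift of the median gene. FANCC was dimmer, with 76.5 and 89.7 for shBORIS and 64.8 and 63.2 for shLUC, and stood at -0.17 (adjusted p = 0.115). With a pseudocount of 64, and when its probe sets were averaged, FANCC passed as lower. FANCM, the translocase that anchors the complex on DNA, had 91.0 and 87.5 with shBORIS and 57.2 and 50.9 with shLUC, at 0.11 (adjusted p = 0.306). FANCB, under the filter, read 58.4 and 72.7 with shBORIS and 34.6 and 32.0 with shLUC. Of the 6 tested core members, FANCL was the 1 that rose on the relative scale in the fit described here, and its dimmest probe set read 0.14 (adjusted p = 0.169 in the fit over all probe sets). FANCM passed as higher after quantile normalization (0.31) and with no filter (0.23), and as lower when its probe sets were averaged (-0.20), so its direction is uncertain.

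UBE2T, the ubiquitin-conjugating enzyme that works with FANCL, went the other way. Its intensities were 2627.1 and 2906.2 with shBORIS and 2202.3 and 2169.5 with shLUC. That was higher by 0.34 as deposited (adjusted p = 0.00141) and lower by a log2 difference of -0.14 relative to the median gene (SE 0.05; adjusted p = 0.0351). The relative call was lost without shBORIS replicate 1, shBORIS replicate 2 or shLUC replicate 2 and under 5 other alternatives, where the adjusted p reached 0.66 (-0.03 with no filter). Among the Fanconi members it was the brightest on the array, and USP1, the enzyme that undoes its reaction, was the one with the largest rise.

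Checkpoint genes did not move as a block. TP53BP1, the chromatin-bound factor that shields broken ends and steers them to end joining, had intensities of 222.7 and 250.1 with shBORIS, against 79.5 and 78.6 with shLUC. Its relative rise was 0.93 (SE 0.07; adjusted p = 5.24e-06), and its 3 probe sets above the filter read 0.82 to 0.93. CHEK2, the kinase downstream of ATM, read 618.7 and 643.2 with shBORIS and 301.7 and 276.3 with shLUC, a relative rise of 0.61 (SE 0.06; adjusted p = 1.34e-05). ATR, the kinase that senses single-stranded DNA at stalled forks, read 164.7 and 184.3 with shBORIS and 114.3 and 90.1 with shLUC. Its relative rise of 0.22 was just past the threshold (adjusted p = 0.045). The call was lost without shBORIS replicate 1, shBORIS replicate 2 or shLUC replicate 2, at 0.12 without the last. It was also lost with a pseudocount of 64.

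The upstream kinase ATM and the ATR partner ATRIP were among those that did not pass. ATM, the sensor kinase of double-strand breaks, had 166.9 and 184.0 with shBORIS and 127.7 and 98.7 with shLUC, at 0.10 relative to the median gene (adjusted p = 0.347). ATRIP had 107.7 and 126.8 with shBORIS and 77.7 and 74.5 with shLUC, at 0.05 (adjusted p = 0.611). Both were higher as deposited. CHEK1, the kinase downstream of ATR, read 349.0 and 317.1 with shBORIS and 238.1 and 214.3 with shLUC on its brightest probe set, at 0.05 (adjusted p = 0.608). Its 5 dimmer probe sets, all above the filter, read 0.16 to 0.71, and as the mean of its probe sets CHEK1 rose by 0.42. Whether CHEK1 differed from the median gene therefore depends on the probe set read.

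MDC1 was the checkpoint member that fell. This scaffold binds phosphorylated H2AX and gathers repair factors at the break. Its intensities were 662.7 and 879.3 with shBORIS and 681.5 and 651.6 with shLUC, so the groups overlapped as deposited and the difference of 0.19 did not pass (adjusted p = 0.107). Relative to the median gene it fell by 0.29 (SE 0.09; adjusted p = 0.0172), and its 3 probe sets above the filter read -0.31 to -0.23. The call was lost without shBORIS replicate 1, where the value was -0.13, and with no filter on dim genes, where it was -0.17. MDC1 and TP53BP1, which meet on the same damaged chromatin, thus lay at opposite ends of the checkpoint group.

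Both tested break sensing genes rose on their brightest probe sets, and their other probe sets read lower. RAD50 and NBN belong to the complex that tethers broken ends and activates ATM. RAD50 had 207.5 and 221.5 with shBORIS and 127.5 and 105.5 with shLUC, a relative rise of 0.33 (SE 0.07; adjusted p = 0.0034). The dimmer RAD50 probe sets above the filter read 0.22 and 0.04. NBN had 459.8 and 529.2 with shBORIS and 274.5 and 269.7 with shLUC, a relative rise of 0.34 (SE 0.06; adjusted p = 0.00116). The other 4 NBN probe sets read -0.04 to 0.09, and as the mean of its probe sets NBN did not pass (0.11, adjusted p = 0.0881). The NBN rise thus rests on 1 probe set.

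In mismatch repair, MSH6, the subunit that recognises single mismatched bases, had 1768.9 and 1770.6 with shBORIS, against 830.0 and 750.9 with shLUC. Its relative rise was 0.67 (SE 0.05; adjusted p = 5.47e-06), and its other probe set read 0.90. PMS2, the nuclease subunit that nicks the new strand, was dim, at 48.1 and 51.8 with shBORIS and 40.8 and 32.4 with shLUC, and was not tested. PMS2 has near-identical pseudogenes, so its probe set is uncertain. The mismatch repair values here therefore rest on MSH6.

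End joining genes ranged from a relative 0.70 to -0.56. PRKDC, the kinase recruited by the Ku dimer, read 916.3 and 994.1 with shBORIS and 469.4 and 361.9 with shLUC, a relative rise of 0.70 (SE 0.08; adjusted p = 4.22e-05), and its 3 probe sets above the filter read 0.44 to 0.76. The Ku subunits that load it, XRCC5 and XRCC6, are among the brightest members. XRCC5 had 2460.5 and 2669.0 with shBORIS and 1774.9 and 1551.7 with shLUC. Its relative rise of 0.14 (adjusted p = 0.0312) was lost under 6 alternatives, among them the fits without shBORIS replicate 1, shBORIS replicate 2 or shLUC replicate 2. XRCC6 had 4620.6 and 4960.2 with shBORIS and 3644.9 and 3487.1 with shLUC, at a relative -0.05 (adjusted p = 0.325). Its other probe set read 0.13 (adjusted p = 0.0388 in the fit over all probe sets). XRCC6 passed as lower with a 60th percentile filter and as higher after quantile normalization (0.09), so its direction is uncertain. The kinase and its Ku partners, which form 1 holoenzyme, thus had unlike values, with no test made between them.

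LIG4, the ligase that seals the joined ends, was the member below 0 on both scales. Its intensities were 76.9 and 57.6 with shBORIS and 81.3 and 62.2 with shLUC, which overlap, and the difference as deposited was -0.08 (adjusted p = 0.528), which turned to 0.09 without shBORIS replicate 2 and 0.08 without shLUC replicate 1. Relative to the median gene it fell by 0.56 (SE 0.14; adjusted p = 0.00536), with values from -0.77 to -0.34 over the alternatives, the ends being those without shBORIS replicate 1 and without shBORIS replicate 2. LIG4 is close to the filter, and dim genes stood lower in general: in the dimmest of 10 equal bins of the genes tested, the median of all genes was -0.17 on the relative scale. PARP1, which marks single-strand breaks with ADP-ribose chains, had 2458.8 and 2566.7 with shBORIS and 1734.2 and 1750.2 with shLUC, at 0.05 (adjusted p = 0.48). Its 3 dimmer probe sets read -0.30 to 0.01. Those at -0.30 and -0.16 passed as lower in the fit over all probe sets (adjusted p = 0.00384 and 0.0322). With no filter PARP1 passed as higher on its brightest probe set, so its direction is uncertain.

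**Figure D3:**
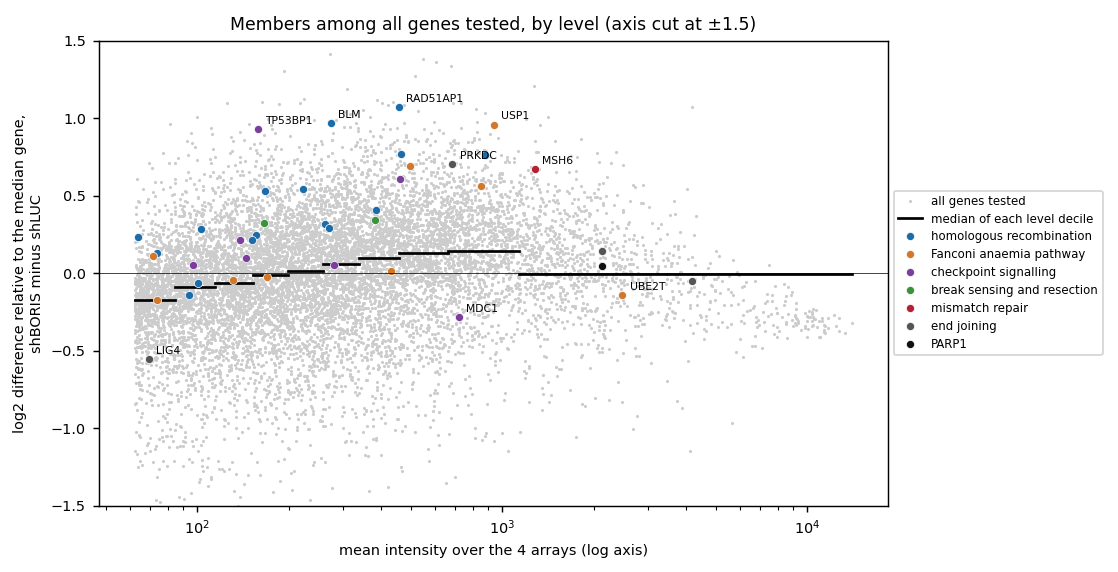
Relative log2 difference (shBORIS minus shLUC) against mean intensity (log axis) for all 10946 genes tested in grey, with the median of each of 10 equal bins by level as black lines and the members in colour by role; 43 genes lie beyond the axis limits of ±1.5. The members' medians per bin, not drawn, are above the black line in all 10 bins, while LIG4, MDC1 and UBE2T, the 3 members that fell, lie below it.

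Since the shift of all genes depended on level, members were also set beside genes as bright as they were. The relative median of all genes ranged from -0.17 in the dimmest of the 10 bins to 0.15 in the ninth. In each bin the members' median was above that of all genes, by the least in the brightest one, which held 5 members with a median of 0.05 against -0.01 for all genes there. In the ninth bin, 5 members had a median of 0.70. This is a description of unequal and small groups of genes.

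Agreement between probe sets was checked for the 24 members with more than 1 above the filter. In 18 of them every probe set had the same sign relative to the median gene, and in 6 (TOP3A, FANCF, ATM, NBN, XRCC6 and PARP1) the signs differed. None of these 6 except NBN had been called from the brightest probe set on the relative scale. RAD51AP1, RAD51C, TP53BP1, CHEK2, USP1, MSH6 and PRKDC were above 0 on all of theirs above the filter.

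**Figure D4:**
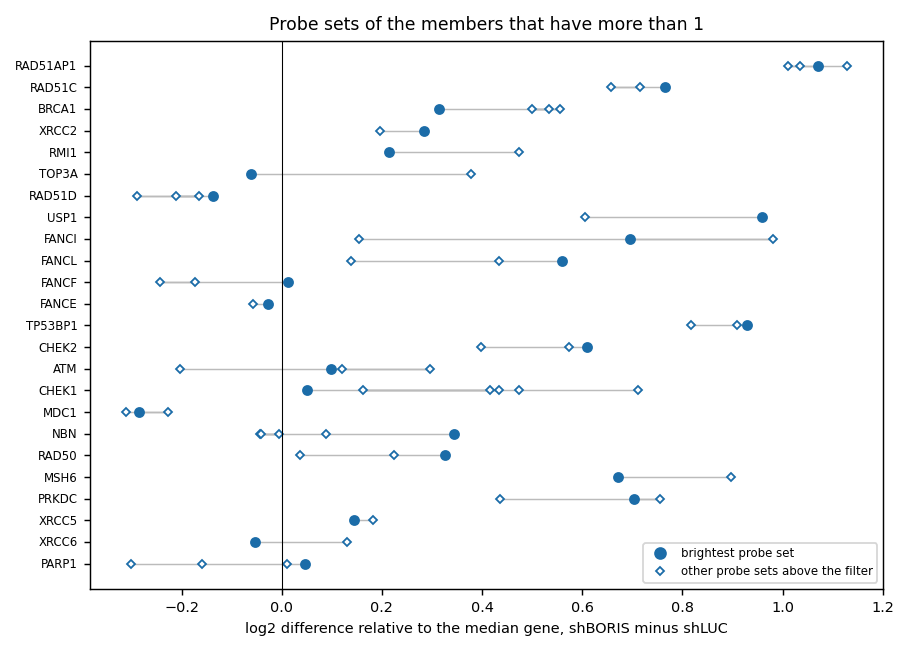
Relative log2 difference (shBORIS minus shLUC) of every probe set above the filter for the 24 members with more than 1; filled circles are the brightest probe set and open diamonds the others. RAD51AP1 and TP53BP1 are tight and high, CHEK1 and FANCI are wide, and 6 genes lie on both sides of 0.

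Repair genes outside the 46, in lists also chosen with earlier results known, rose more often than they fell. Of 114 tested genes from 8 other repair lists, 58 rose (50.9%) and 16 fell (14.0%) on the relative scale, beside 30.3% and 28.8% of all genes tested, and their median was 0.18. As deposited 105 were higher (92.1%) and 1 lower, beside 77.2% and 4.64% of all genes tested. Other checkpoint genes rose most often, 11 of 14 with a median of 0.39, led by the histone variant H2AX, which is phosphorylated around breaks, at 0.72. Other recombination genes rose in 14 of 27, with 1 fall, led by FIGNL1, an ATPase that acts in recombination, at 0.85. Nucleotide excision repair counted 9 rises and 3 falls of 19, from CETN2 at 0.88 to the cyclin CCNH at -0.48. Base excision repair counted 10 rises and 4 falls of 20. Its highest member was the glycosylase OGG1 at 0.60 and its lowest the glycosylase NEIL2 at -1.26, which had 79.8 and 84.2 with shBORIS and 156.6 and 149.3 with shLUC. NEIL2 was also the gene of these lists that fell as deposited (-0.79).

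Other end joining genes counted 3 rises and 2 falls of 9 (33.3% rose, near the 30.3% of all genes tested), with a median of -0.06, and 9 of 9 were higher as deposited. XRCC4, the partner of LIG4, rose by 0.46, and TDP2, which frees ends trapped by topoisomerase, fell by 0.23. Other Fanconi and crosslink genes counted 4 rises and 3 falls of 9, from FAAP100 at 0.56 to DCLRE1A at -0.50. Translesion synthesis counted 4 rises and 2 falls of 12 (33.3% rose, again near the share of all genes), with 10 of 12 higher as deposited, from the polymerase subunit REV3L at 0.64 to UBE2B at -0.43. Other mismatch repair genes counted 3 rises and 0 falls of 4, led by MLH3 at 0.38. Where no scale is named, these counts and differences are on the relative scale.

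The replicative helicase genes MCM2 to MCM7 are high in cells entering S phase. On the relative scale 5 of the 6 rose and 0 fell (median 0.56), beside 30.3% of all genes tested that rose. MCM5 rose most, by 1.04, and MCM7 did not pass (0.06, adjusted p = 0.301). Among 18 tested p53 targets, 12 were higher and 2 lower as deposited (median 0.33), whereas on the relative scale 3 rose and 8 fell (median -0.15). Over all genes tested, 77.2% were higher and 4.64% lower as deposited, and 30.3% rose and 28.8% fell on the relative scale. GADD45A, a stress gene induced by p53, was lowest, with 1297.4 and 1503.2 for shBORIS against 2117.7 and 2065.7 for shLUC, and fell by 1.05. ZMAT3 was highest and rose by 0.33. The part of cell cycle position in the repair results was not tested.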

How the data were processed

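Affymetrix PrimeView arrays were hybridised with biotin-labelled RNA to which ERCC spike-ins had been added, per the labels' protocols. The authors deposited 1 intensity per probe set and array, not logged. The submitters' processing notes name MAS5, R 3.1.3 and affy, not their roles, and the sources used here do not say how arrays were scaled. The ERCC probe sets had medians of 25.5 and 25.8 with shBORIS and 24.8 and 24.4 with shLUC, while all cellular probe sets had medians of 80.8 and 84.5 with shBORIS and 64.4 and 60.4 with shLUC.

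From 49495 probe sets, 202 controls, 1333 with several symbols and 2682 unnamed ones were left out of gene tests; symbols of the other 45278 were updated through Entrez identifiers, of which 45208 were found in RefSeq (GRCh38.p14). Each gene was read from the probe set with the highest mean, and genes under the 40th percentile of gene means were left out. A model with the hairpin as its only term was fitted to log2(intensity + 16) with limma 3.58.1 (R 4.3.3, intensity trend, 2 residual degrees of freedom), and 2-sided p-values were adjusted by Benjamini-Hochberg over the 10946 genes, with a threshold of 0.05. As deposited the prior had infinite degrees of freedom, so p-values there rest on the spread pooled over genes alone; on centred arrays it had 7.94. Single probe sets were fitted over all 49293 cellular ones. With 2 arrays a group, the smallest p of an exact permutation test is 0.333, and the number of arrays limits precision. The script was tested on simulated data.

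The members, the other lists and the tests were chosen with earlier results of these data known. All members are named; values on every array were to be given for checkpoint, sensing, mismatch, end joining and PARP1 members, and for the recombination and Fanconi members with the 6 largest and 2 smallest relative differences or a direction that differed between scales. Other lists name their highest and lowest gene. Alternatives were another scaling (quantile, ERCC), pseudocount, filter, probe set rule, prior, replicate block and leaving out each array.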

Additional observations from a re-analysis of the deposited data

How the results depend on the processing

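As deposited, 38 members were called; 25 were higher and 3 lower after quantile normalization, and 23 were called and 23 higher with a 60th percentile filter, which left 24 members tested. Without each array in turn, 36 to 39 were called as deposited, all higher. Relative to the median gene 26 members were called; without each array in turn 20 to 26 were called, 18 to 22 were higher and 1 to 4 were lower, the 1 without shBORIS replicate 1. Members lower numbered 1 with no filter and 5 when probe sets were averaged, the Fanconi members higher 5 with no filter, and the checkpoint members higher 1 with a 60th percentile filter. Signs turned after quantile normalization of the deposited values for RAD51D (-0.059), FANCC (-0.0336), FANCE (-0.023), FANCF (-0.0742), FANCG (-0.0047), UBE2T (-0.13) and MDC1 (-0.41), and relative to the median gene for XRCC6 (0.0911). When probe sets were averaged they turned for TOP3A (0.20) and FANCM (-0.20). Relative signs of FANCE, FANCF, FANCG, XRCC3, ATM, ATRIP, CHEK1 and PARP1 also crossed 0 under some alternative, with no call on the turned side. The stricter filter tests fewer members by construction, and those it drops were not run under it. ERCC scaling could change little on the relative scale, since each array's median was subtracted afterwards. For the changes under the other alternatives the cause was not tested. Of the 23 relative rises 16 kept call and direction under every alternative run, and of the 3 relative falls 1 did, that of LIG4. Same-numbered arrays share only a number (correlation of their deviations 0.098), and with the replicate block 38 members were called as deposited and 26 on the relative scale, the counts without it. Shares over all genes are not given for these alternatives, so their counts describe the members alone. Precision is limited by having 2 arrays a group.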
